A study of Mus musculus with 12 samples.

Results

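The genes described here are 37 named genes of the cell cycle and of DNA replication, read in tissues of Sirt6 knockout mice. They were chosen by name for their functions, with earlier results of these data already known. Of the 37, 35 were measured, among 14654 named genes and 31234 features in all; a feature is a gene with its probes averaged or an unnamed probe. Mki67 and Ccnb1 had no probe with their symbol. Each of 12 arrays compared knockout RNA, labelled with the red dye Cy5, with wild type RNA, labelled with the green dye Cy3. The knockout tissues were thymus, spleen, skin and liver of 29-day-old animals, and spleen and liver of 21-day-old pups, with 2 arrays for each of the 6 groups. The reference on each array was wild type RNA of the same tissue and age. At 21 days it came from a pool of 3 wild type littermates; the labels leave out the make-up of the 29-day wild type RNA. They also name neither the Sirt6 allele nor the strain or sex. In each channel 15 µg of amplified RNA was labelled. Nothing in the labels says that the arrays of a group held different animals, so the p-values measure the spread between arrays, which at 21 days may be technical.

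Each value is a log2 ratio, knockout over wild type, with the median of the array set to 0, so a negative value means less of that RNA in the knockout channel relative to the other features. A ratio carries no level, so the genes cannot be ranked by abundance and the labelled tissues cannot be checked by the level of their markers. No array had the dyes exchanged, and a dye preference of a probe remains in its ratio.

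The cell cycle runs through a growth phase, DNA replication, a second growth phase and mitosis, and RNA of the genes for each step is made mainly in dividing cells. Cyclin E with its kinase starts replication after the Mcm2 to Mcm7 ring has been loaded on origins by Cdc6. Cyclin A, cyclin B and Cdk1 then carry the cell into mitosis, where kinases of the spindle checkpoint delay chromosome separation until the anaphase-promoting complex is switched on by Cdc20. In the young mouse, immature thymocytes, red cell precursors of the spleen, hair matrix cells of the skin and growing hepatocytes are among the dividing cells of these tissues. Sirt6 is a chromatin-bound deacylase of the sirtuin family, known for roles in genome maintenance and glucose metabolism.

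Promoters are shown because these genes share a small set of sequence elements. E2F factors bind sites in promoters of replication genes, the MuvB complex binds the CHR element of mitotic genes, and NF-Y binds the CCAAT box. Promoters in RefSeq (GRCm38.p6) matched 30 of the 37 genes by symbol. In the 250 bases before the start, on both strands, CCAAT was found in 24 of the 30 matched promoters, against 34.5% of the promoters of 27025 genes. The CHR element TTTGAA was found in 30.0%, against 16.3%, and together with a CCAAT box in 30.0%, against 5.73%. E2F-like sites were searched in 4 forms. One form was TTCCCGC and another was TTGGCGC, while the remaining forms searched were TTCGCGC and also the closely related form TTGCCGC. At least 1 of these was found in 30.0%, against 7.97% of all promoters. The replication genes held an E2F-like site in 6 of 11 promoters, and the genes of the mitotic kinases, spindle and mitotic exit in 0 of 14. Cdk1, Ccnb1 and Mki67, which are in neither of these sets, held the other matches. These are matches of letters and not measured binding. The last 150 bases before the start are printed below for 3 replication genes, Mcm5, Mcm6 and Cdc6. They are also printed for Ube2c and Top2a of the mitosis set, and for Cdk1, which is in neither set. These genes were taken because they carry much of the values that follow. Matches are in capitals, and matches that overlap run together. The stretches lie at chr8:75109359-75109508 (plus strand) for Mcm5, chr1:128359706-128359855 (minus strand) for Mcm6, chr11:98908001-98908150 (plus strand) for Cdc6, chr10:69352913-69353062 (minus strand) for Cdk1, chr2:164769779-164769928 (plus strand) for Ube2c and chr11:99024190-99024339 (minus strand) for Top2a.
Mcm5: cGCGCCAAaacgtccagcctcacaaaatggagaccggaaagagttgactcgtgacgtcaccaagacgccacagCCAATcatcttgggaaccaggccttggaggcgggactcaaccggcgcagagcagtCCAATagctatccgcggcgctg
Mcm6: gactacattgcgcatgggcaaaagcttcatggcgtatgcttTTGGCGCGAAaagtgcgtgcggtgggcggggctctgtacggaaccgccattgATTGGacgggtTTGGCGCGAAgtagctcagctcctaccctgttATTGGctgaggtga
Cdc6: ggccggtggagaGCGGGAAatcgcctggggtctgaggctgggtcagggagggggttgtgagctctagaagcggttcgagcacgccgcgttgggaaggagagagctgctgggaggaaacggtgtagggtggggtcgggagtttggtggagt
Cdk1: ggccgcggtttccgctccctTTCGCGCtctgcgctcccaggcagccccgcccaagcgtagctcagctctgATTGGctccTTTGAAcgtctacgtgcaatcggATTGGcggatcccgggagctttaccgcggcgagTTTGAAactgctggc
Ube2c: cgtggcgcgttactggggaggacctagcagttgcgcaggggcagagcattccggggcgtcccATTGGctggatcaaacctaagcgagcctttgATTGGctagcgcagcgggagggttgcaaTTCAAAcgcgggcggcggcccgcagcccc
Top2a: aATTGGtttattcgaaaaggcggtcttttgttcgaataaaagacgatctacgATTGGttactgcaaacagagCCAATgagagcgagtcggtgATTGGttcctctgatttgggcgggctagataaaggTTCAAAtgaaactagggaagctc
Mcm5, Mcm6 and Cdk1 held E2F-like sites and CCAAT boxes within these bases, Cdk1, Ube2c and Top2a held CHR elements and CCAAT boxes, and Cdc6 held 1 E2F-like site alone.

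The arrays were uneven. Of 38784 probes, 339 to 484 lacked a value on each 29-day array and 661 to 10155 on each 21-day array, replicate 6 of 21-day spleen lacking most. That array also had the widest spread of ratios at 21 days, and replicate 2 of 29-day spleen the widest at 29 days. On these 2 arrays 140 housekeeping genes of the ribosome and the respiratory chain had medians of -0.79 and -1.04, against -0.12 to 0.50 on the other arrays. The Y-linked gene Eif2s3y had ratios of 3.35 to 5.08 on the replicate 2 arrays at 29 days and of -0.13 to 0.37 on the replicate 1 arrays, and of -8.0 to -2.87 at 21 days. The 2 arrays of each 29-day group therefore did not hold the same pair of RNA samples. A difference in sex between the channels was not tested. At 21 days and on the replicate 2 arrays at 29 days it cannot be told apart from the knockout. Nor can it be told apart from other differences between the replicates of a 29-day group. Sirt6 itself had ratios of -0.86 and -0.52 in thymus, 0.20 and 0.14 in 29-day spleen, -0.21 and -0.06 in skin, -0.16 and -0.30 in 29-day liver, -2.29 and -0.07 in 21-day spleen and -0.59 and -0.68 in 21-day liver. Whether its probes lie in the deleted stretch is unknown here, and the values are no check of genotype.

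The cell cycle genes were tested gene by gene in 1 limma fit to all arrays, with Benjamini-Hochberg adjustment over all features tested and a threshold of 0.05. None of them passed in any of the 13 comparisons made, namely the 6 groups, the mean over the 29-day tissues, each 29-day tissue against the other 3, and the ages of liver and of spleen. What the arrays do show is where the genes lay relative to all other features, and in thymus and in spleen at 29 days this differed between arrays of the same group.

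**Figure D1:**
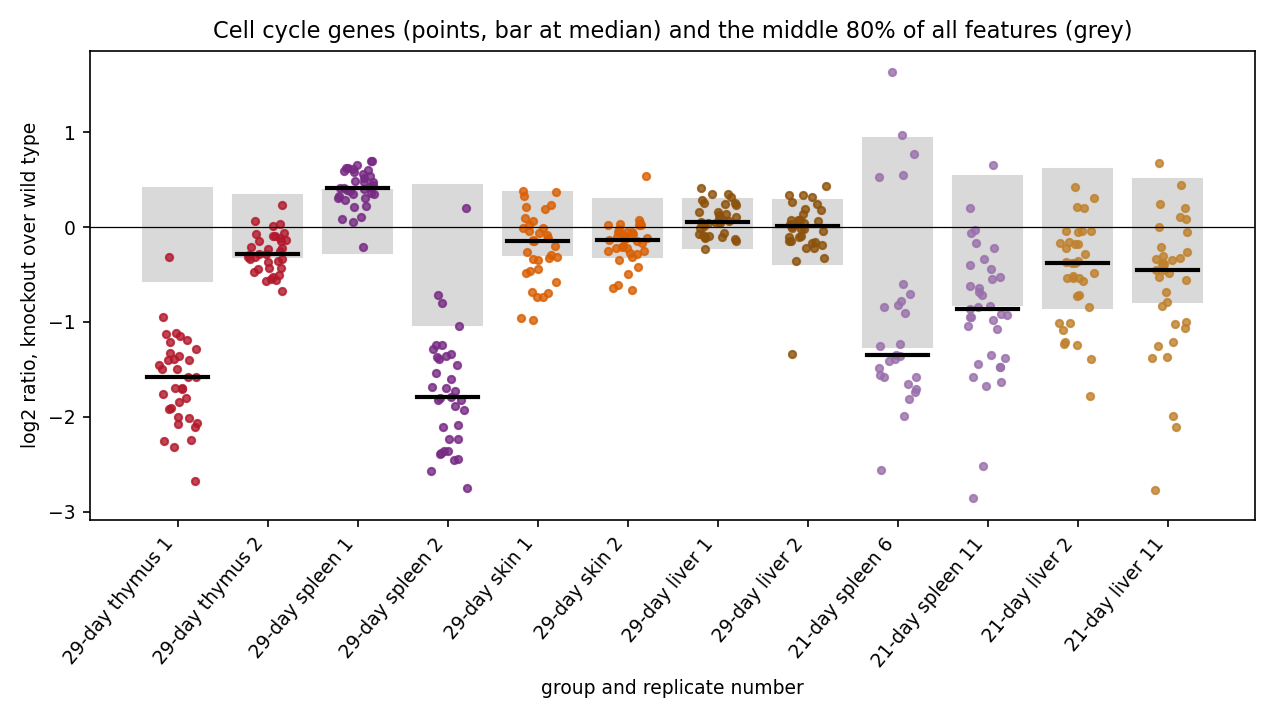
Log2 ratios (knockout over wild type, vertical axis) of the cell cycle genes on each of the 12 arrays; each point is a gene, the black bar is their median, and the grey box spans the middle 80% of all features. The genes lie far below the box on replicate 1 of thymus (median -1.58) and replicate 2 of 29-day spleen (median -1.79), at its upper edge on replicate 1 of 29-day spleen (median 0.41), and near 0 in 29-day liver.

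In 29-day thymus the cell cycle genes had lower ratios than nearly every other feature on 1 array and smaller negative ratios on the other. On replicate 1 all 35 were below 0, with a median of -1.58 and a range of -2.67 to -0.32. The median gene stood at percentile 0.523 of the features on that array, and 34 of 35 were in the lowest 10% of features. On replicate 2 the median was -0.29, with a range of -0.67 to 0.23, and 31 were below 0. On that array the median gene stood at percentile 11.9, and 15 genes were in the lowest 10% of features. Thus 31 genes were below 0 on both arrays, where 33.7% of all features were, and 15 were in the lowest 10% of features on both, where 3.6% of all features were. The typical gap between the arrays was 1.43 for these genes and 0.18 for all features. The median of the group means was -0.93, against 0.02 for all features. In limma 0 genes passed (lowest adjusted p = 0.908, against 0.013% of all features called), and 11 had an unadjusted p under 0.05, all lower, against 3% of all features. In whole tissue, fewer dividing cells and less of each RNA per cell cannot be told apart.

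Markers of other cells were read beside this result. Of 15 thymocyte markers 12 were measured, with medians of -0.53 and -0.03 on replicates 1 and 2 of thymus, and 11 and 8 of them were below 0. Their part in the result was not tested. The 11 measured B cell markers had medians of 0.77 and -0.01, and the 8 measured heart muscle markers had medians of -1.54 and -1.92, below 0 for all 8 on both arrays. Red cell precursor markers had medians of 0.25 and -0.03.

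The arrays of 29-day spleen disagreed about every gene. On replicate 1, 34 of 35 genes were above 0, with a median of 0.41 at percentile 90.8 of the array. On replicate 2, 34 were below 0, with a median of -1.79 at percentile 1.56, and 32 were in the lowest 10% of features. All 35 therefore had opposite signs on the arrays, and 0 were below or above 0 on both, where 17.7% and 19.1% of all features were. The typical gap between the arrays was 2.25 for these genes and 0.45 for all features. The group median of -0.63 thus averages arrays of opposite sign, and it is 0.41 without replicate 2. In limma 0 of 35 passed, and 0% of all features were called. Of the genes 0 had an unadjusted p under 0.05, against 2.39% of all features that were lower by that rule.

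The red cell precursor markers lay on the same sides in 29-day spleen. Of 17 listed, 11 were measured, and their median was 0.54 on replicate 1, with 0 of 11 below 0, and -2.19 on replicate 2, with 11 of 11 below 0. The 8 measured neutrophil precursor markers had medians of 0.82 and -1.42. The B cell markers had medians of -0.58 and -0.88 and the thymocyte markers of -0.28 and -0.23, below 0 on both arrays. The housekeeping genes had medians of 0.29 and -1.04. The part of these markers and of the housekeeping shift in the result was not tested.

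In 21-day spleen the genes had low ratios on both arrays. Values on both arrays existed for 27 genes, since 8 genes (Ccna2, Ccne1, Bub1b, Aurka, Kif11, Mcm4, Ttk and Cenpa) had none on replicate 6. On replicate 6 the median was -1.34, with 22 of 27 below 0, and on replicate 11 it was -0.86, with 33 of 35 below 0. The median genes stood at percentiles 8.81 and 9.46. Below 0 on both arrays were 20 of 27, where 29.1% of all features were, and 11 were in the lowest 10% of features on both, where 2.45% were. In limma 0 of 27 passed, with a lowest adjusted p of 0.0508 for Ccne2, against 4.13% of all features called. At an unadjusted p under 0.05 there were 15, all lower, against 16% of all features. Red cell precursor markers had medians of -1.27 and -1.92 here, B cell markers of -0.77 and 0.07, neutrophil precursor markers of -0.10 and 1.42, and pancreas markers of -1.82 and -1.80. Their part in the result was not tested.

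In 21-day liver the shift was smaller and in the same direction on both arrays. The medians were -0.38 and -0.45 on replicates 2 and 11, at percentiles 25.5 and 20.1. Below 0 on both arrays were 28 of 35, where 33.7% of all features were, and 5 were in the lowest 10% of features on both, where 2.81% were. The median of the group means was -0.43, against -0.04 for all features. In limma 0 passed (lowest adjusted p = 0.0689, for Kif20a, against 2.54% of all features called), and 6 had an unadjusted p under 0.05, all lower, against 11.7%. Red cell precursor markers had medians of 0.22 and -0.37 there, and thymocyte markers of -0.38 and -0.21. Their part in the result was not tested.

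In 29-day liver the genes lay in the middle of the arrays. The medians were 0.05 and 0.01, at percentiles 61.5 and 50.3, with 11 and 17 of 35 below 0. Below 0 on both arrays were 5 genes and above 0 on both were 12, where 22.9% and 23.9% of all features were. In limma 0 passed (lowest adjusted p = 1, against 0.104% of all features called), and 0 had an unadjusted p under 0.05, against 1.45% of all features that were lower by that rule. The typical gap between the arrays was 0.22 for these genes, the same as for all features. Among the genes, 1 stood apart: Ube2c had 0.04 on replicate 1 and -1.34 on replicate 2.

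In 29-day skin the genes lay below the middle of the arrays, unequally between roles. The medians were -0.15 and -0.14, at percentiles 23.9 and 25.4. The median of the group means was -0.17, and it was -0.54 when arrays were centred on the housekeeping genes. Below 0 on both arrays were 22 of 35, where 26.9% of all features were, and 5 were in the lowest 10% of features on both, where 3.98% were. The 5 genes of cyclins and Cdk1 had medians of -0.44 and -0.25, and the 7 genes of spindle, centromere and chromosome structure had medians of -0.49 and -0.15. The 9 genes of origin licensing, helicase and clamp had medians of 0.02 and -0.05. In limma 0 passed (lowest adjusted p = 1, against 0.0389% of all features called), and 0 had an unadjusted p under 0.05, against 1.8% of all features that were lower by that rule. The epidermis and hair matrix markers had medians of 0.03 and 0.21 over 10 measured genes, and the housekeeping genes of 0.50 and 0.25.

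**Figure D2:**
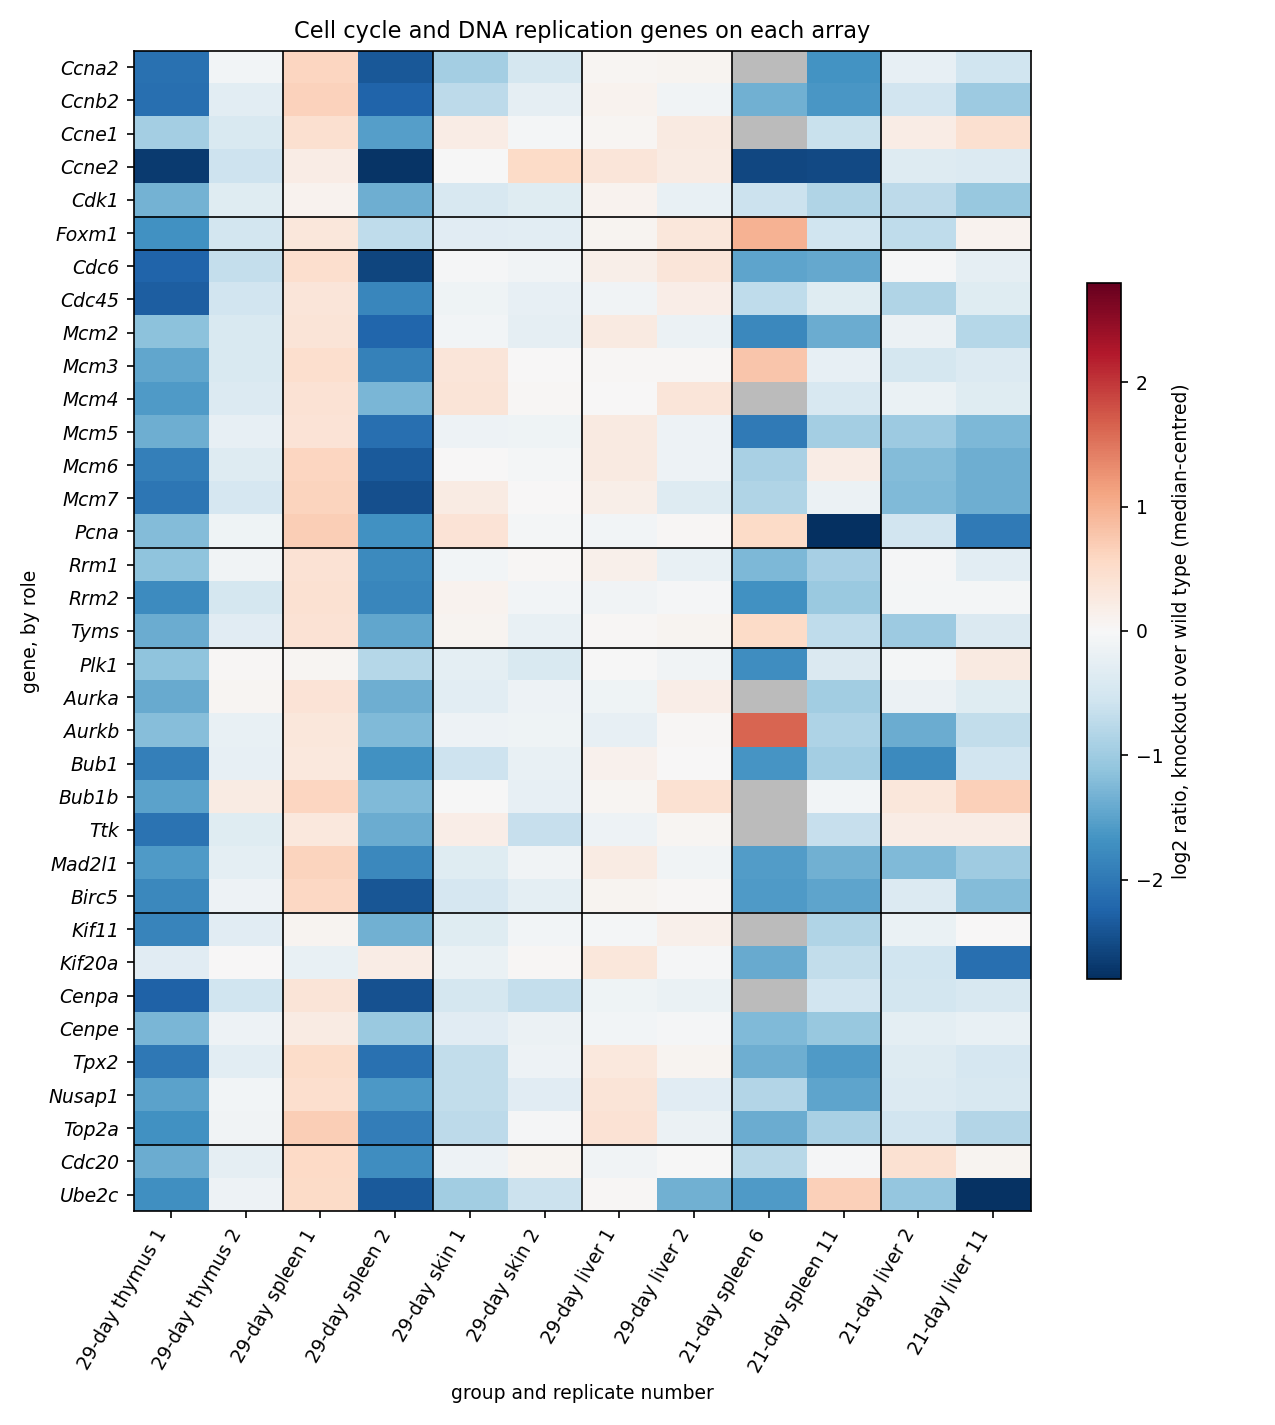
Log2 ratio (knockout over wild type, colour scale) of the 35 measured genes, ordered by role from cyclins at the top to mitotic exit at the bottom, on the 12 arrays; grey cells have no value. Replicate 1 of thymus and replicate 2 of 29-day spleen are blue in nearly every row, replicate 1 of 29-day spleen is pale red, and Kif20a differs from its neighbours in thymus and 29-day spleen.

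Among cyclins and Cdk1, Ccne2, a cyclin that starts replication, differed widely between groups. It had -2.67 and -0.57 in thymus, 0.21 and -2.75 in 29-day spleen, -0.01 and 0.54 in skin and 0.34 and 0.24 in 29-day liver. It had -2.56 and -2.52 in 21-day spleen and -0.36 and -0.39 in 21-day liver. Both arrays of 21-day spleen, 1 array of thymus and 1 of 29-day spleen thus lay near the same low value, while the other thymus array, skin and liver lay between -0.57 and 0.54. Its mean in 21-day spleen was -2.54 (SE 0.61, n = 2, 95% interval -3.91 to -1.17, limma adjusted p = 0.0508). In thymus its mean was -1.62 (SE 0.61, n = 2, limma adjusted p = 0.908). Ccne1, its paralog, had -0.95 and -0.43 in thymus, 0.45 and -1.54 in 29-day spleen and 0.21 and 0.45 in 21-day liver, where Ccne2 was below 0 on both arrays.

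Ccna2, the cyclin of replication and early mitosis, had -2.08 and -0.07 in thymus, 0.59 and -2.38 in 29-day spleen and -0.96 and -0.50 in skin. Ccnb2, a cyclin of mitosis, had -2.10 and -0.29 in thymus, 0.65 and -2.24 in 29-day spleen and -0.74 and -0.25 in skin. Both were thus among the lower genes in skin, where the cyclin E genes were between -0.05 and 0.54. At 21 days Ccnb2 had -1.34 and -1.63 in spleen and -0.54 and -1.02 in liver.

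Cdk1, the kinase that drives entry into mitosis, was below 0 on both arrays in 4 of the 6 groups. It had -1.32 and -0.34 in thymus, 0.11 and -1.37 in 29-day spleen, -0.44 and -0.35 in skin and 0.09 and -0.22 in 29-day liver. It had -0.60 and -0.84 in 21-day spleen and -0.73 and -1.07 in 21-day liver. Its mean over the 4 tissues at 29 days was -0.48 (SE 0.17, limma adjusted p = 0.540), the lowest adjusted p of the genes in that comparison. There 0 of 35 passed, against 0.049% of all features called, and 5 had an unadjusted p under 0.05, all lower, against 5.33%. The median of the genes over the 4 tissues was -0.46, against 0.01 for all features, and it holds the arrays of spleen that disagree.

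Foxm1, a transcription factor of mitotic genes, had -1.70 and -0.52 in thymus and 0.32 and -0.72 in 29-day spleen. It had 0.97 and -0.55 in 21-day spleen and -0.72 and 0.11 in 21-day liver. Its arrays agreed in sign in thymus, skin (-0.32 and -0.29) and 29-day liver (0.08 and 0.32), and not in the other groups.

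Of the genes that license and unwind origins, Cdc6, which loads the Mcm ring, had -2.25 and -0.67 in thymus, 0.47 and -2.57 in 29-day spleen, -0.04 and -0.10 in skin and 0.16 and 0.33 in 29-day liver. It had -1.48 and -1.44 in 21-day spleen and -0.04 and -0.26 in 21-day liver. Its -0.67 was the lowest value of any of the genes on replicate 2 of thymus. Cdc45, part of the active helicase, had -2.31 and -0.55 in thymus and the lowest unadjusted p there, with a mean of -1.43 (SE 0.49, n = 2, limma adjusted p = 0.908). In skin and 29-day liver both genes lay between -0.23 and 0.33.

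The 6 genes of the Mcm ring are subunits of 1 helicase. In thymus they lay between -2.02 and -1.15 on replicate 1 and between -0.47 and -0.23 on replicate 2, and in 29-day spleen between 0.36 and 0.62 on replicate 1 and between -2.45 and -1.29 on replicate 2. In these tissues the subunits therefore lay on the same side of 0 on each array. In 21-day liver they split: Mcm5 (-1.01 and -1.25), Mcm6 (-1.22 and -1.38) and Mcm7 (-1.25 and -1.37) were low on both arrays. Mcm3 (-0.49 and -0.37) and Mcm4 (-0.18 and -0.35) were nearer 0, and Mcm2 had -0.16 and -0.79. The Mcm4 value on replicate 2 averages probes at -1.08 and 0.71, and on replicate 11 the first of these alone had a value. The place of Mcm4 in this split therefore depends on the probe. In 21-day spleen Mcm2 (-1.81 and -1.38) and Mcm5 (-1.99 and -0.95) were low on both arrays, with a mean for Mcm2 of -1.60 (SE 0.48, n = 2, limma adjusted p = 0.0852). Mcm3 had 0.77 and -0.22 there and Mcm6 had -0.91 and 0.20, so the arrays did not agree on the sign of either.

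Pcna, the sliding clamp of the replication fork, had some of the largest gaps between arrays. It had 0.53 and -2.86 in 21-day spleen, -0.54 and -1.99 in 21-day liver, 0.69 and -1.70 in 29-day spleen and -1.21 and -0.12 in thymus. Its sign agreed between arrays in thymus and in 21-day liver.

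The nucleotide synthesis genes Rrm1 and Rrm2, subunits of ribonucleotide reductase, and Tyms, which makes thymidylate, were below 0 on both arrays of thymus. Rrm2 had -1.76 and -0.50 there, 0.43 and -1.82 in 29-day spleen and -1.70 and -1.04 in 21-day spleen. In skin, 29-day liver and 21-day liver it lay between -0.10 and 0.09. Tyms had 0.54 and -0.72 in 21-day spleen and -1.01 and -0.39 in 21-day liver. The 0.54 came from 1 of its 4 probes, the others having no value on that array, and the same probe had -0.35 on replicate 11.

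Among the mitotic kinases and checkpoint genes, Mad2l1, a checkpoint protein that holds back the anaphase-promoting complex, was low in both groups at 21 days. It had -1.56 and -1.35 in 21-day spleen and -1.24 and -1.00 in 21-day liver. At 29 days it had -1.58 and -0.28 in thymus, 0.62 and -1.80 in spleen, -0.35 and -0.10 in skin and 0.24 and -0.10 in liver. The checkpoint kinase gene Bub1 had -1.65 and -0.95 in 21-day spleen and -1.78 and -0.53 in 21-day liver. Birc5, also known as survivin, a partner of aurora B, had -1.58 and -1.48 in 21-day spleen and -0.38 and -1.21 in 21-day liver. These 3 genes were thus below 0 on all 4 arrays at 21 days. This was not particular to them, since it also held for Ccne2, Ccnb2, Cdk1, Cdc6, Mcm2, Mcm5, Top2a and Kif20a, among others.

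Bub1b, the checkpoint partner of Mad2l1, did not share this. It had 0.31 and 0.68 in 21-day liver, -1.49 and 0.23 in thymus and 0.05 and 0.43 in 29-day liver. Aurkb, the aurora kinase of the centromere, had the highest ratio of all on replicate 6 of 21-day spleen, 1.63, and -0.86 on replicate 11. In 21-day liver Aurkb had -1.39 and -0.68. Plk1, a kinase of mitotic entry and spindle assembly, had -1.13 and 0.03 in thymus, 0.05 and -0.80 in 29-day spleen and -1.74 and -0.40 in 21-day spleen.

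Of the spindle and centromere genes, Cenpa, the histone variant of the centromere, had -2.26 and -0.56 in thymus, 0.35 and -2.45 in 29-day spleen and -0.49 and -0.67 in skin. Its mean in thymus was -1.41 (SE 0.58, n = 2, limma adjusted p = 0.908). Top2a, which untangles sister chromosomes, had -1.69 and -0.09 in thymus, 0.69 and -1.93 in 29-day spleen, -1.39 and -0.91 in 21-day spleen and -0.54 and -0.83 in 21-day liver. Tpx2, an activator of aurora A, had -2.00 and -0.28 in thymus, 0.52 and -2.08 in 29-day spleen and -1.36 and -1.58 in 21-day spleen. All 3 genes were on the same side as most of the others in these groups.

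Kif20a, a kinesin of the central spindle, stood apart from the other genes. In thymus it had -0.32 and 0.02 and in 29-day spleen -0.21 and 0.20, near 0 on arrays where the medians of the genes were -1.58 and -1.79. It was the 1 gene outside the lowest 10% of features on replicate 1 of thymus. At 21 days it was low, with -1.41 and -0.68 in spleen and -0.56 and -2.10 in liver. Its mean in 21-day liver was -1.33 (SE 0.33, n = 2, limma adjusted p = 0.0689) and in 21-day spleen -1.05 (SE 0.33, n = 2, limma adjusted p = 0.0916). It was read by 1 probe.

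At mitotic exit, Ube2c, the ubiquitin-conjugating enzyme of the anaphase-promoting complex, had -1.08 and -2.77 in 21-day liver, the lowest single value there. It had -1.58 and 0.66 in 21-day spleen, -1.71 and -0.13 in thymus, 0.53 and -2.36 in 29-day spleen and -0.98 and -0.61 in skin. Ube2c was below 0 on both arrays of thymus, skin and 21-day liver. Its mean in 21-day liver was -1.93 (SE 0.75, n = 2, limma adjusted p = 0.198). Cdc20, the activator of the complex, had 0.42 and 0.08 in 21-day liver and -1.40 and -0.26 in thymus.

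**Figure D3:**
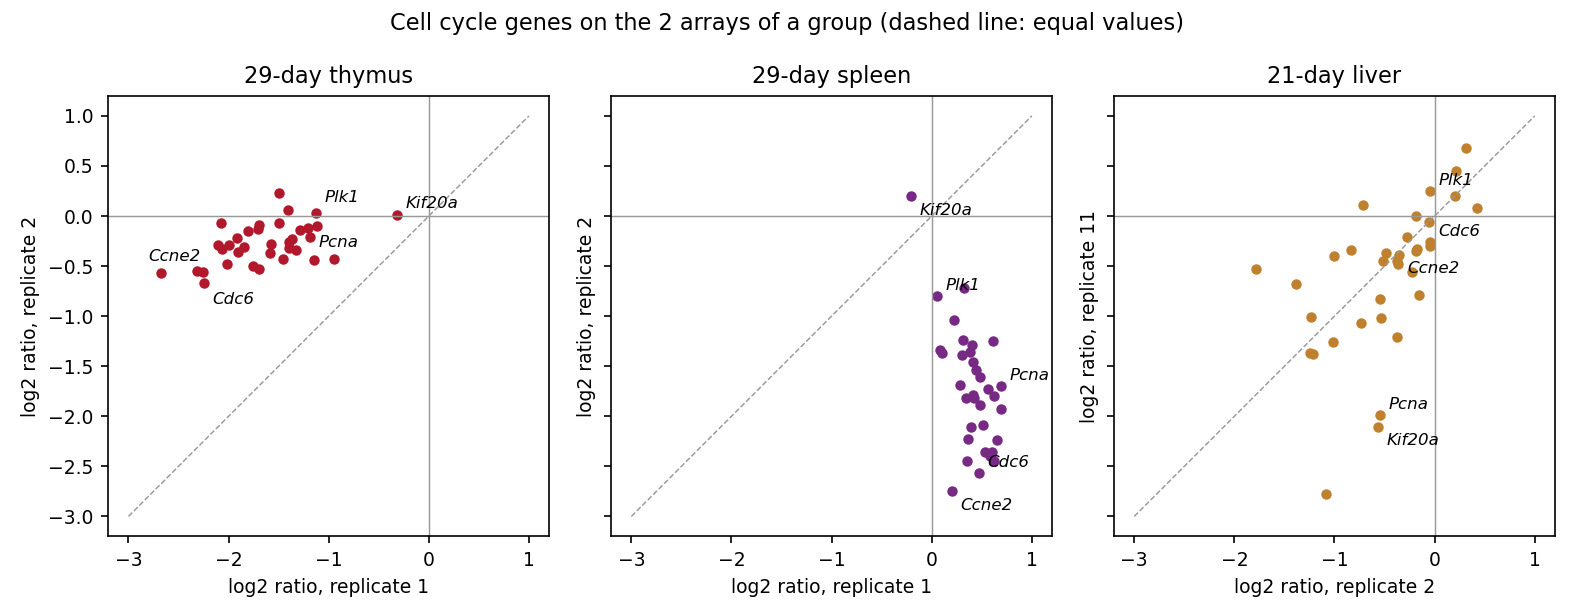
Log2 ratio (knockout over wild type) of each cell cycle gene on the first array of a group (horizontal axis) against the second (vertical axis), for 29-day thymus, 29-day spleen and 21-day liver; each point is a gene and the dashed line marks equal values. Thymus genes are below 0 on both arrays in 31 of 35 cases and nearer 0 on replicate 2, 29-day spleen genes are above 0 on replicate 1 and below 0 on replicate 2 except Kif20a (-0.21 and 0.20), and 21-day liver genes scatter around the line.

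The probes of a gene often gave different ratios. Of the 35 genes, 16 had more than 1 probe, at most 4. A probe without a value was left out of the average, so the probes averaged can differ between arrays. On replicate 6 of 21-day spleen the values of Tyms, Plk1 and Foxm1 (0.54, -1.74 and 0.97) each came from 1 probe. On replicate 11 the same probes had -0.35, -1.01 and -0.44. Of the 2 probes of Cdk1, one had -2.46 and the other -0.19 on replicate 1 of thymus, -2.81 and 0.08 on replicate 2 of 29-day spleen, and -2.01 and -0.12 on replicate 11 of 21-day liver. The same probe was thus the low one on each of these arrays, and the mean of the gene lay between them. Of the 3 probes of Nusap1, a spindle protein gene, those with -2.40 and -2.34 on replicate 1 of thymus had -2.54 and -2.42 on replicate 2 of 29-day spleen. Its other probe had 0.25 and 0.15 on these arrays. Of the 4 probes of Rrm2, 3 had -2.55 to -2.02 on replicate 1 of thymus and -0.76 to -0.62 on replicate 2, while the other had -0.11 and 0.08. Cenpe, a kinetochore motor gene, had 2 probes at -1.51 and -2.54 and 1 at 0.19 on replicate 1 of thymus. For these 4 genes the averaged value thus includes 1 probe that was not low on these arrays. Plk1 had probes at -2.05 and -0.21 on replicate 1 of thymus and at -1.82 and 0.22 on replicate 2 of 29-day spleen. On replicate 2 of thymus these probes had -0.22 and 0.285, so the sign of Plk1 there depends on the probe. The widest gap was that of Cdc20 on replicate 11 of 21-day liver, where its 3 probes had -0.89, -0.92 and 2.06, so its mean there hides opposite signs. With each probe tested on its own, Ccne2 in 21-day spleen was the 1 gene that passed in the 6 groups (lowest adjusted p = 0.043, 4.1% of all features called).

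The spread of the genes bears on these tests, because limma uses 1 spread per gene for all groups. Of the residual sum of squares of these genes, 58.6% came from 29-day spleen and 22.7% from 29-day thymus, against 21.7% and 6.11% over all features. Without replicate 1 of 29-day spleen, 11 genes passed in 21-day spleen, all lower, with 7.51% of all features called. The genes were Birc5, Ccnb2, Ccne2, Cdc6, Cenpe, Mad2l1, Mcm2, Mcm5, Rrm1, Rrm2 and Tpx2. Leaving out replicate 2 of 29-day spleen instead gives in effect the same test, because the 1 array left adds no residual. It is therefore not a further result. Without replicate 11 of 21-day spleen, where 1 array was left, 3 passed, of which Aurkb was higher, with 26.8% of all features called. Without replicate 6 of 21-day spleen and replicate 2 of 29-day spleen, the arrays of widest spread, 7 genes passed in 21-day liver, all lower, with 12.3% of all features called. They were Aurkb, Cdk1, Kif20a, Mad2l1, Mcm5, Mcm6 and Mcm7. In that fit 21-day spleen was left with 1 array, replicate 11, where 33 of 35 genes were below 0 with a median of -0.86. Without replicate 1 of 29-day spleen, Cdc6 and Mcm2 passed in 29-day spleen, with 1 array left, and 1.03% of all features called.

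Tissues at 29 days were compared with each other in the same fit. In thymus against the other 3 tissues all 35 genes had a difference below 0, where 47% of all features had, with a median of -0.60, against 0.02 over all features. In limma 0 passed there (lowest adjusted p = 0.9999, 0.00979% of all features called) and 0 had an unadjusted p under 0.05. In liver against the other 3 tissues 0 of 35 had a difference below 0, where 50.7% of all features had, with a median of 0.61 (0 passed, lowest adjusted p = 0.9999, 0.0359% of all features called, 0 at an unadjusted p under 0.05). Skin and spleen against the other tissues had medians of 0.29 and -0.24, with 0 genes passing and 0 at an unadjusted p under 0.05, and 0% of all features called in either. These 4 differences share their arrays and are not independent of each other. They average spleen arrays with medians of 0.41 and -1.79 and thymus arrays with medians of -1.58 and -0.29. How far they rest on the lower array of each pair was not tested.

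Between ages, 29 of 35 genes had a higher ratio at 29 than at 21 days in liver and 6 a lower one, where 47.7% of all features were lower, with a median difference of 0.52, against 0.02 over all features. In limma 0 passed (0.0138% of all features called), and 1, Kif20a, had an unadjusted p under 0.05 and was higher, as were 5.85% of all features, with a difference of 1.48 (limma adjusted p = 0.410). In spleen 18 of 27 had a higher ratio at 29 days and 9 a lower one, where 52.2% of all features were lower. The median difference was 0.59, against -0.02 over all features. The 29-day mean averages arrays with medians of 0.41 and -1.79, above and below both 21-day spleen medians (-1.34 and -0.86). The direction of the difference in spleen thus rests on replicate 1 at 29 days. There too 0 passed (0.0866% of all features called), and 1, Kif20a, had an unadjusted p under 0.05 and was higher, as were 5.67% of all features, with a difference of 1.04 (limma adjusted p = 0.450). Age cannot be told apart from the make-up of the wild type RNA, the array set or a difference in sex between the channels. The Y-linked Eif2s3y differed between the ages. Without replicate 2 of 21-day liver 1 array was left at that age, replicate 11, where Kif20a had -2.10, against -0.56 on replicate 2.

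Other genes of the same processes were read from lists. Of 65 other mitosis genes, 3 of 45 tested fell in 21-day spleen, with a median of -0.95 over the list and 24 at an unadjusted p under 0.05, all lower. Over all features 4.13% passed there and 16% were lower at that unadjusted p. The 3 were Nek2, a kinase of centrosome separation (-1.95, SE 0.43, limma adjusted p = 0.0426), Anln, the cytokinesis protein anillin (-1.74, SE 0.31, adjusted p = 0.0249), and Kif18a, a kinesin of chromosome alignment (-1.47, SE 0.30, adjusted p = 0.0375). Nek2 had -2.71 and -1.18 on the arrays, Anln -2.06 and -1.41 and Kif18a -1.15 and -1.78. Of 17 genes of nucleotide and chromatin supply 11 were tested there, and Slbp, the binding protein of histone mRNA, fell (-1.92 and -1.99 on the arrays, mean -1.95, SE 0.43, adjusted p = 0.0417). All 4 calls were lost with arrays of the same age alone, where the lowest adjusted p was 0.31, and with scaled arrays, where it was 0.335. In thymus 0 of 58 mitosis genes passed, with 20 at an unadjusted p under 0.05, all lower, against 3% of all features, and a median of -0.83. The arrays of thymus had list medians of -1.44 and -0.20, those of 29-day spleen 0.35 and -1.36.

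Of 42 other genes of replication origins and forks, 36 were tested in thymus, where 0 passed, against 0.013% of all features, and 9 had an unadjusted p under 0.05, all lower, against 3%, with a median of -0.65. Radx, which encodes a single-stranded DNA binding protein of replication forks, was the 1 gene of this list that passed in any group, and it rose in liver at both ages. It had 1.5 and 1.76 in 29-day liver (mean 1.63, SE 0.19, limma adjusted p = 0.0150) and 1.99 and 1.96 in 21-day liver (mean 1.97, SE 0.19, adjusted p = 0.00199). In the other groups its arrays lay between 0.0045 and 0.99. The call in 29-day liver was lost when arrays were centred on the housekeeping genes (adjusted p = 0.654) and without either array of the group (0.227 and 0.325). The call in 21-day liver was lost with arrays of the same age alone (adjusted p = 0.385) and with housekeeping centring (0.0532). Btg2, an antiproliferative gene of the list of cell cycle inhibitors, rose in 21-day liver (1.34 and 1.39, mean 1.36, SE 0.28, adjusted p = 0.0447), with an adjusted p of 0.574 with arrays of the same age alone and 0.319 with scaled arrays.

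Upstream regulators were read as well. E2f1, the activating E2F factor, had -1.13 and -0.22 in thymus, 0.18 and -1.60 in 29-day spleen and -1.52 and -1.08 in 21-day spleen, where its mean was -1.30 (SE 0.36, limma adjusted p = 0.0729). Cdkn1a, the p21 inhibitor of cyclin kinases, had 1.24 and 0.82 in skin (mean 1.03, SE 0.37, adjusted p = 1) and 0.78 and 0.60 in 29-day liver (mean 0.69, adjusted p = 1). It had 0.56 and -0.06 in thymus, 0.68 and -0.70 in 29-day spleen, 0.59 and 0.40 in 21-day spleen and 0.38 and -1.03 in 21-day liver. The 18 tested genes of the E2F and Rb list had a median of -0.42 in thymus, against -0.83 for the mitosis list. The 12 genes of the list of cell cycle inhibitors, which holds Btg2, had a median of -0.26. The 13 cyclins and kinases of the first growth phase had a median of -0.58. None of these lists had a gene that passed in thymus, and 0, 0 and 2 of their genes had an unadjusted p under 0.05.

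**Figure D4:**
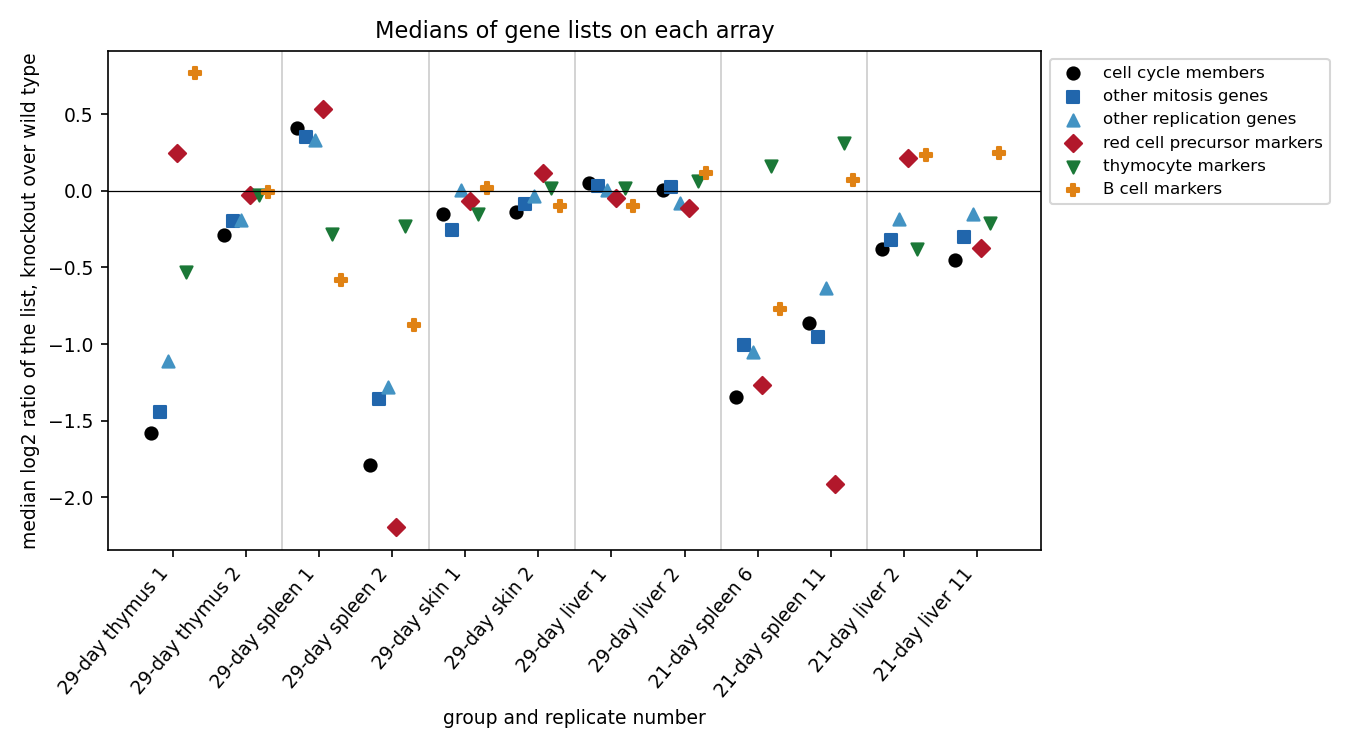
Median log2 ratio (knockout over wild type, vertical axis) of 6 gene lists on each of the 12 arrays; each symbol is 1 list. The cell cycle genes and the other mitosis and replication genes lie on the same side of 0 on every array of thymus, of spleen at both ages and of 21-day liver, red cell precursor markers lie with them on both arrays of 29-day spleen (0.54 and -2.19) and not on replicate 1 of thymus (0.25), and B cell markers are at 0.77 there.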

How the data were processed

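Per the labels, the knockout channel was always Cy5 and the wild type channel Cy3; TRIzol extraction is stated for the knockout RNA alone. The authors deposited one table of log2 ratios of these channels (38784 probes, values from -8.08 to 9.75). Base 2 is inferred from the values, and the labels state no scanner, background correction or normalization. The table holds no signal over background, so dim spots could not be removed, and the number of arrays limits the precision.

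The median of each array was set to 0. The platform annotation gave 1 symbol to 22204 probes, all matched by gene ID to the gene table of GRCm38.p6, and none to 16580, which stayed unnamed. Probes of a gene were averaged. Limma 3.58.1 in R 4.3.3 (lmFit, eBayes, 6 residual and 3.57 prior degrees of freedom) fitted 1 mean per group over the 12 arrays; tests were two-sided against 0 or between groups. A feature was tested where the group and a minimum of 2 further groups had values on both arrays. At 21 days the wild type RNA was pooled, so the spread between single wild type animals is not part of the tests. Whether it is part of them at 29 days cannot be told from the labels. Replicate numbers come from the labels, except 1 array of 21-day liver that was numbered by deposit order.

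All measured genes of the list could be named; genes of the other lists were named where they passed, beside a fixed set of regulators. The 37 genes, the 7 pathway lists and the 8 marker lists were chosen with earlier results of these data known. Alternatives were other centring, scaling, normalization, filters, thresholds and variance priors, a replicate block, fits to a single age, and leaving out arrays; leaving out the 2 widest spleen arrays together was chosen after seeing the data. The steps were tested on simulated data.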

Additional observations from a re-analysis of the deposited data

Results flagged for a closer look

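The median log2 ratio of the cell cycle genes lay above 0 on both arrays of 29-day liver and below 0 on both arrays of other groups, which is why it is listed here. It was 0.0545 and 0.0080 on replicates 1 and 2 of 29-day liver. It was -0.3777 and -0.4510 on replicates 2 and 11 of 21-day liver, -0.1510 and -0.1410 on replicates 1 and 2 of 29-day skin, and -1.5815 and -0.2850 on replicates 1 and 2 of 29-day thymus. The differences between these medians were not tested, and the tests gene by gene between ages and between tissues passed 0 of 35 genes. The 29-day liver medians are small beside the spread of that group, since 18 of 35 genes had opposite signs on its arrays.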

How the results depend on the processing

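Of the counts of cell cycle genes that passed, 291 under alternatives stayed the same and 19 moved, and no direction of a median was turned by another centring or scaling. In 21-day liver 1 gene passed with no centring, 1 at an adjusted p of 0.1, 0 to 1 with each array left out in turn, and 7 without the widest spleen arrays of both ages. In 21-day spleen 1 passed with no centring, 1 with each probe on its own, 5 at an adjusted p of 0.1, 0 to 11 with each array left out, and 3 without the widest spleen arrays. Kif20a was the 1 gene that passed in 21-day liver without its replicate 2 or without either 21-day spleen array, and in 21-day spleen without either 21-day liver array. In 29-day spleen 0 to 2 passed with each array left out. In the mean of the 4 tissues 2 passed after quantile normalization (Cdk1 and Cenpa). Between ages 0 to 1 passed in liver with each array left out, and 1 in spleen without the widest spleen arrays. With all 12 arrays, 4.39% of all features passed in 21-day liver with no centring and 6.19% at an adjusted p of 0.1. In 21-day spleen 3.84% and 13.1% did so, and 4.1% with each probe on its own. After quantile normalization 3.07% passed in the mean of the 4 tissues. The counts of 1 gene in these fits were not above these shares, while 5 of 27 and 2 of 35 were. Without the widest spleen arrays 8.61% of all features passed in 21-day spleen, where 1 array was left, and 3.66% in spleen between ages. The 3 and 1 of 35 genes there were not above these shares. Where Kif20a alone passed, 3.04% to 6.67% of all features did in 21-day liver and 4.24% in 21-day spleen. Its share was not above these, but it was above the 1.34% between ages in liver. The cause of these moves in the counts was not tested, beyond what the residual shares show. Scaling the arrays to the same spread gave 0 in all 13 comparisons.

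The replicate block also gave 0 genes in all 13. The 29-day replicate numbers were not taken as pairs: the difference between replicates 2 and 1 correlated between tissues at -0.21 to 0.41 across features, over 0.1 for liver with spleen and skin with spleen alone. Eif2s3y does split by the number in all 4 tissues. The medians of the genes under centring on housekeeping genes were -0.89 for thymus, -0.26 for spleen, -0.54 for skin and 0.07 for liver at 29 days, and -0.72 for spleen and -0.58 for liver at 21 days. The calls of Radx, Btg2, Slbp, Nek2, Anln and Kif18a were lost in 74 fits under alternatives and kept in 86. Of these, leaving out 1 array ended the call of Slbp for every array outside 29-day spleen (adjusted p 0.0504 to 0.123). It ended that of Anln for 21-day spleen replicate 6 and each 29-day liver and skin array (0.0537 to 0.106), and that of Kif18a for 21-day spleen replicate 11 and the same liver and skin arrays (0.0671 to 0.0755). It ended that of Nek2 for 21-day spleen replicate 6 and each liver and thymus array (0.0524 to 0.274), that of Btg2 for each liver, skin and 29-day spleen array (0.0624 to 0.175), and that of Radx at 29 days for each 29-day liver, skin and thymus array (0.0552 to 0.325).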
